A study of Mus musculus with 2 samples.

Results

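The Sin3-HDAC genes examined here were 10 genes of the Sin3 histone deacetylase co-repressor and of proteins associated with it, namely Sin3a, Sin3b, Hdac1, Hdac2, Sap30, Sap130, Suds3, Arid4a, Arid4b and Emsy. They were chosen by name, and every probe set that the platform annotation pairs with 1 of these symbols alone was used, 29 probe sets of the 45037 on the array and 10 genes of 18193 measured. Arid4a and Emsy were placed among them because earlier results of these data had shown a large difference between the clones, so that difference is described here and not tested. The arrays were 2 Affymetrix mouse expression arrays, 1 for each of 2 clones (clone 1 and clone 2) of Klf5-overexpressing E14 cells, a line of mouse embryonic stem (ES) cells; Klf5 is a zinc finger transcription factor. Both clones were labelled undifferentiated and were grown in ES medium with fetal bovine serum and LIF, a cytokine that sustains ES cell self-renewal. The labels give neither the promoter that drives Klf5 nor the days of culture and hybridisation, so clone, culture and array cannot be told apart. Wild-type ES cells, with which the study compared these clones, were not analysed here, and no value below is a response to Klf5.

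The Sin3 complex is a co-repressor: the scaffold proteins Sin3a or Sin3b hold the histone deacetylases Hdac1 and Hdac2, and DNA-binding factors such as the Mxd proteins and Rest dock on the scaffold and bring it to their target genes. Removal of acetyl groups from histone tails favours compact, less transcribed chromatin. Sin3a is required for the survival and proliferation of early embryonic cells, and in ES cells the complex is bound at active as well as repressed genes. Arid4a (RB-binding protein 1) and its paralog Arid4b are chromatin-binding subunits, and Emsy, first known as a partner of the repair protein Brca2, has been found with a Sin3b complex that also holds the histone demethylase Kdm5a.

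All 10 genes had a brightest probe set above background in both clones, as had 49.9% of all measured genes. Background was set per array from 85 probe sets of 52 adult tissue genes (caseins, crystallins, digestive enzymes and others), as their 95th percentile, 6.48 in clone 1 and 6.29 in clone 2 on the log2 scale of the deposited signals. Of the 29 probe sets, 18 passed background in both clones and 11 passed in neither. Among the 18, the signal was higher in clone 2 in 11 and lower in 7, and among the 11 dim ones it was higher in 6 and lower in 5. Each gene read by its brightest probe set, 8 of the 10 were higher in clone 2, beside 63.5% of the 9668 genes that passed background in 1 clone or both. That share was 77.2% with the arrays centred on their medians, 48.2% after quantile and 51.5% after loess normalization, so no direction is read from it.

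**Figure D1:**
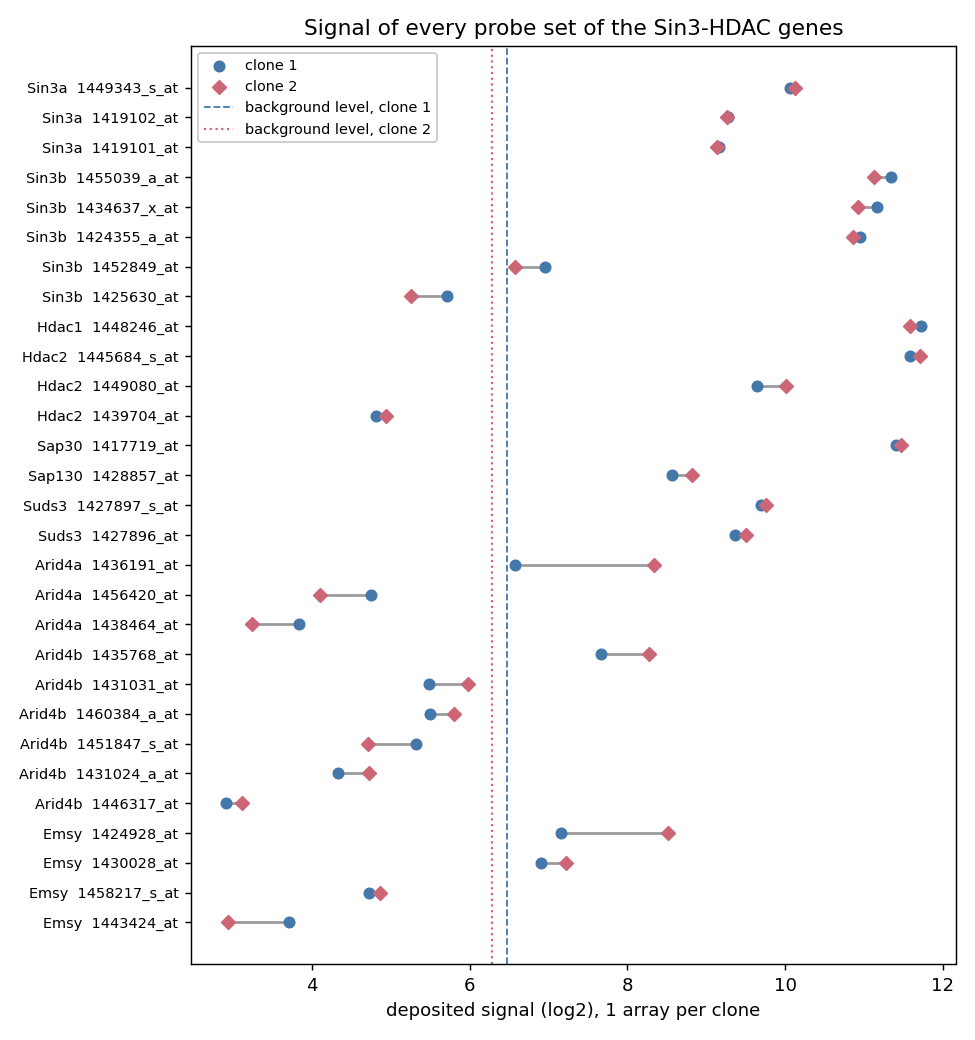
Deposited log2 signal (horizontal axis) of each of the 29 probe sets of the 10 genes (rows), with a circle for clone 1, a diamond for clone 2 and a grey line joining them; the vertical lines are the background levels, 6.48 in clone 1 and 6.29 in clone 2. The longest gaps among probe sets above background are those of Arid4a (6.57 and 8.34) and Emsy (7.16 and 8.52), while the points of Sin3a and Sap30 nearly coincide.

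Arid4a, whose product binds the pocket of the retinoblastoma protein and links it to the deacetylase complex, had the largest difference of the 10 genes. Its brightest probe set, 1436191_at, read 6.57 in clone 1 against 8.34 in clone 2, and averaged 7.46 ± 1.25 (SD, n = 2). Clone 2 was thus 3.41-fold higher, a log2 difference of 1.77 that ranked 1 of 9668 genes. The clone 1 signal lay just over its background level of 6.48, whereas that of clone 2 was well over it. With Mylpf among the background genes the clone 1 level was 6.60, which the Arid4a signal does not pass, and clone 2 was then at least 3.33-fold higher. At the 99th percentile, 7.16, it was at least 2.26-fold higher. The remaining probe sets of Arid4a ran the other way, at 4.75 and 4.11 for 1456420_at and at 3.84 and 3.24 for 1438464_at. Neither was above background in either clone, so the difference in Arid4a rests on 1 probe set.

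Emsy, a large nuclear protein with an N-terminal domain that bears its name, differed in the same direction. Its brightest probe set, 1424928_at, was 7.16 in clone 1 and 8.52 in clone 2 (mean 7.84 ± 0.96, SD, n = 2), a log2 difference of 1.36 or 2.57-fold, which ranked 5 of 9668 genes. A second probe set above background, 1430028_at, was 6.91 and 7.22, higher in clone 2 by 1.24-fold. The probe sets 1458217_s_at (4.72 and 4.87) and 1443424_at (3.71 and 2.94) were below background in both clones. The readings above background thus had 1 direction but not 1 size. Their log2 differences lay 1.05 apart. Over 3551 genes with 2 or more such probe sets the median range was 0.27, and 1.75% had a range as large. Among the 4267 probe sets in the dimmest of 4 bands of signal above background, 37.8% differed by no less than 1430028_at. The mean of the Emsy probe sets above background was 1.78-fold higher in clone 2, under the 2-fold used here as a fixed rule of size.

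Arid4b, which shares with Arid4a a DNA-binding ARID domain and is a subunit of the Sin3a complex, was also higher in clone 2, without reaching 2-fold. The probe set 1435768_at was 7.67 in clone 1 and 8.28 in clone 2 (mean 7.98 ± 0.43, SD, n = 2), or 1.53-fold. Of 9668 genes, 96.7% had a lower difference. The other 5 Arid4b probe sets were below background, with signals between 2.91 and 5.98. Of these, 4 were higher in clone 2 and 1451847_s_at was lower (5.32 and 4.71). The log2 difference of Arid4a exceeded that of Arid4b by 1.16.

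The scaffolds differed little. Sin3a gave 10.06 and 10.13 in clones 1 and 2 by 1449343_s_at, 9.28 and 9.27 by 1419102_at, and 9.16 and 9.14 by 1419101_at. These log2 differences of 0.07, -0.01 and -0.02 bracket 0. Sin3b was lower in clone 2 by all 5 of its probe sets. Its brightest, 1455039_a_at, gave 11.34 and 11.13 (mean 11.24 ± 0.15, SD, n = 2), a log2 difference of -0.21. The others above background differed by -0.24 (1434637_x_at, 11.16 and 10.92), -0.09 (1424355_a_at, 10.95 and 10.86) and -0.38 (1452849_at, 6.96 and 6.58), and the dim 1425630_at (5.72 and 5.26) by -0.46. The largest of those above background is 1.30-fold, and probe sets of 1 gene share the same RNA, so their common direction is 1 observation. Among the 4290 brightest probe sets, the top of 4 equal bands of signal, 30.5% differed by no less than 1455039_a_at.

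The catalytic subunits ran in opposite directions by small amounts. Hdac1, a class I deacetylase, was 11.72 in clone 1 and 11.58 in clone 2 by its single probe set, a log2 difference of -0.14. Hdac2 was 11.59 and 11.71 by 1445684_s_at, 9.65 and 10.01 by 1449080_at, and 4.82 and 4.94 by the dim 1439704_at. Its differences of 0.12, 0.36 and 0.12 were all higher in clone 2. In the same top band 49.1% of probe sets had a difference no smaller than that of Hdac1, and 55.6% one no smaller than that of 1445684_s_at, while 10.3% had one no smaller than the 0.36 of 1449080_at.

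The smaller structural subunits were close to equal in the clones. Sap30, which bridges Sin3 and the deacetylases, was 11.40 and 11.47. Suds3, the mouse counterpart of yeast Sds3, needed for deacetylase activity of the complex, was 9.69 and 9.76 by 1427897_s_at and 9.36 and 9.50 by 1427896_at. Sap130, a subunit that binds the scaffold, was 8.57 and 8.82, a log2 difference of 0.25. Beside the median difference of all genes above background, 0.09, Sap30 (0.07) and the brighter Suds3 probe set (0.07) lay slightly under, and the other Suds3 probe set (0.14) and Sap130 over it. After quantile or loess normalization the brightest probe set of Suds3 was marginally lower in clone 2, by -0.02 and -0.01.

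In order of clone difference by the brightest probe set the genes ran Arid4a (1.77), Emsy (1.36), Arid4b (0.61), Sap130 (0.25), Hdac2 (0.12), then Sap30, Suds3 and Sin3a (0.07 each), Hdac1 (-0.14) and Sin3b (-0.21). The median over the 10 genes was 0.095, and without Arid4a and Emsy 0.07 over 8 genes, beside 0.09 over all genes above background. At 2-fold or more 2 of the 10 genes differed, the pair picked for it, and 0 of the other 8, beside 46 of 9668 genes or 0.476%. Of those 46 genes 35 (0.362% of all tested) were higher in clone 2 and 11 (0.114%) in clone 1. The split of higher to lower was 59 to 8 with arrays centred on their medians, 17 to 14 after quantile and 19 to 12 after loess normalization, and it turned to 54 to 132 when genes below background were let in. Because 1 array stands for each clone, no spread within a clone is known, and whether any of these differences exceeds it could not be tested.

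**Figure D2:**
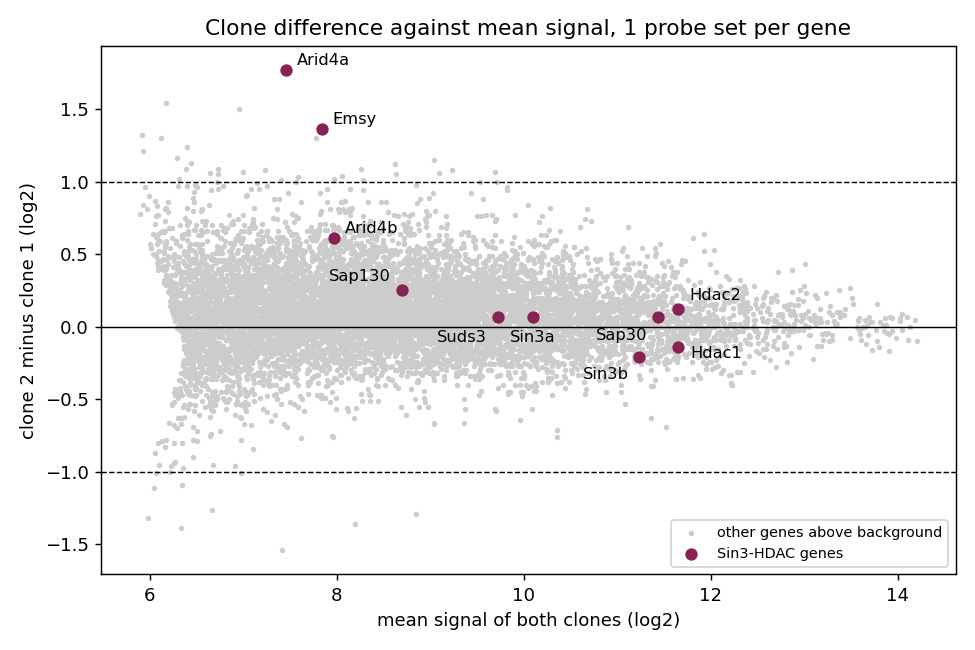
Difference between clones (clone 2 minus clone 1, log2) against the mean signal of both clones (log2) for the brightest probe set of each of the 9668 genes that passed background; grey points are other genes, the 10 Sin3-HDAC genes are labelled, and dashed lines mark 2-fold. Arid4a and Emsy lie above the upper line and the other 8 genes, from -0.21 to 0.61, lie between the lines.

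The remaining subunits of the complex were read beside these genes. Of 15 listed, 12 were measured, all 12 above background in both clones, beside 49.9% of all measured genes. In clone 2, 10 were higher and 1 lower, with a median log2 difference of 0.09, the same as that of all genes. Over all genes above background 63.5% were higher in clone 2 and 0.476% differed by 2-fold. With so low a share, 0 of these 12 by 2-fold is not read as a result about them. After quantile or loess normalization 6 were higher and 6 lower, beside 48.2% and 51.5% of all genes higher. They ranged from -0.02 to 0.24. The largest was that of Kdm5a, the H3K4 demethylase found with Emsy and Sin3b, at 8.21 in clone 1 and 8.45 in clone 2. Gatad1, a reader in the same demethylase complex, was 8.49 and 8.71, and Ing1, a PHD finger subunit that reads methylated H3K4, was 9.84 and 10.02. The histone-binding chaperone Rbbp7 was 12.84 in both clones.

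The factors that dock on the complex were read in the same way. Of 15 measured, 13 were above background in both clones, with 11 higher and 2 lower in clone 2, 0 of them by 2-fold, and a median log2 difference of 0.21. Over all genes above background 63.5% were higher in clone 2, 0.476% differed by 2-fold and the median was 0.09. With so low a share, 0 of 13 by 2-fold is not read as a result about these factors. After quantile normalization the docking partners had a median of 0.145 with 10 higher and 3 lower, beside a median of -0.005 and 48.2% higher over all genes. Foxk2, a forkhead factor that binds Sin3a, was 7.76 and 8.53 (1.71-fold). Ogt, the O-GlcNAc transferase, was 10.56 and 11.01, and the Max partner Mxi1 was 8.81 and 9.22. The DNA dioxygenase Tet1 was 10.79 and 11.00. Mxd1, a Max partner of differentiating cells, fell outside the naming rule and was chosen after its values were seen: it was 5.15 and 6.28, not above background in either clone and just under it in clone 2, so no fold is given.

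The genes of the retinoblastoma pathway, to which Arid4a binds, were all 10 above background in both clones. Of them 9 were higher in clone 2 and 1 was lower, 0 by 2-fold, with a median of 0.225 beside the 63.5%, 0.476% and 0.09 of all genes. After quantile normalization 9 were still higher and 1 lower, with a median of 0.115, beside 48.2% higher and a median of -0.005 over all genes. E2f5, a repressive E2F, was 8.88 and 9.47 (1.51-fold), Rb1 itself was 8.25 and 8.57, E2f4 was 8.56 and 8.84, and the E2F dimer partner Tfdp1 was 10.54 and 10.78. Among 5 partners of Emsy 4 were above background. The heterochromatin protein Cbx1 was 10.95 and 11.39, the histone reader Zmynd11 was 8.63 and 9.03, Cbx5 was 10.31 in both clones, and Brca2 was 10.38 and 10.37. These 4 had a median of 0.20, and of 0.11 after quantile normalization, beside 0.09 and -0.005 over all genes.

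The other histone deacetylases, which work outside the Sin3 complex, were split in the deposited values. Of 9 measured, 6 were above background in both clones, 3 higher and 3 lower in clone 2, 0 by 2-fold, with a median of -0.12 beside 0.09 over all genes. In the deposited values 63.5% of all genes above background were higher in clone 2 and 0.476% differed by 2-fold. With so low a share, 0 of 6 by 2-fold is not read as a result about the deacetylases. After quantile or loess normalization 1 was higher and 5 were lower, with medians of -0.2 and -0.18. Over all genes above background 48.2% and 51.5% were then higher. Hdac4 (6.84 and 6.41), Hdac7 (6.83 and 6.56) and Hdac11 (6.67 and 6.42), all near background, were lower in clone 2, and Hdac6, a cytoplasmic tubulin deacetylase, was 10.95 and 11.02.

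**Figure D3:**
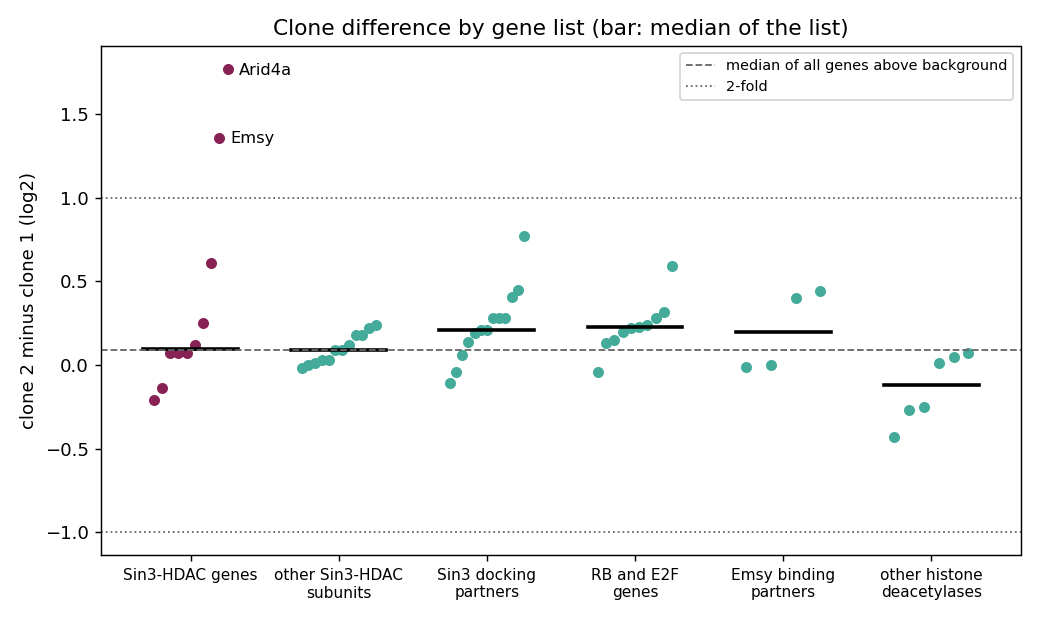
Difference between clones (clone 2 minus clone 1, log2) for each gene above background, by list: the 10 Sin3-HDAC genes, 12 other subunits, 13 docking partners, 10 RB and E2F genes, 4 partners of Emsy and 6 other deacetylases. Points are genes, black bars are list medians, the dashed line is the median of all genes (0.09) and dotted lines mark 2-fold, beyond which only Arid4a and Emsy of the plotted genes lie.

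The genes beside Arid4a and Emsy on their chromosomes were read for comparison. In the gene order of assembly GRCm38.p6, the 5 nearest genes above background on each side of Arid4a had log2 differences from -0.33 (Nin) to 0.54 (Daam1), with a median of 0.01 and 5 of 10 higher in clone 2. Genes not measured or below background were passed over in this order. The nearest on either side that were read, the proteasome subunit Psma3 (12.65 and 12.70) and the mitochondrial import chaperone Timm9 (7.53 and 7.71), differed by 0.05 and 0.18. Around Emsy the 10 neighbours ranged from -0.32 (Dgat2) to 0.41 (Acer3), with a median of 0.085 and 6 of 10 higher in clone 2. The ceramidase gene Acer3 (6.72 and 7.13) and the THAP-domain gene Thap12 (9.01 and 9.35), the nearest that were read on either side of Emsy, differed by 0.41 and 0.34. None of these 20 neighbours differed by 2-fold. Over all genes above background 0.476% did, and 63.5% were higher in clone 2. With so low a share, none among 20 is not read as a result about these regions.

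**Figure D4:**
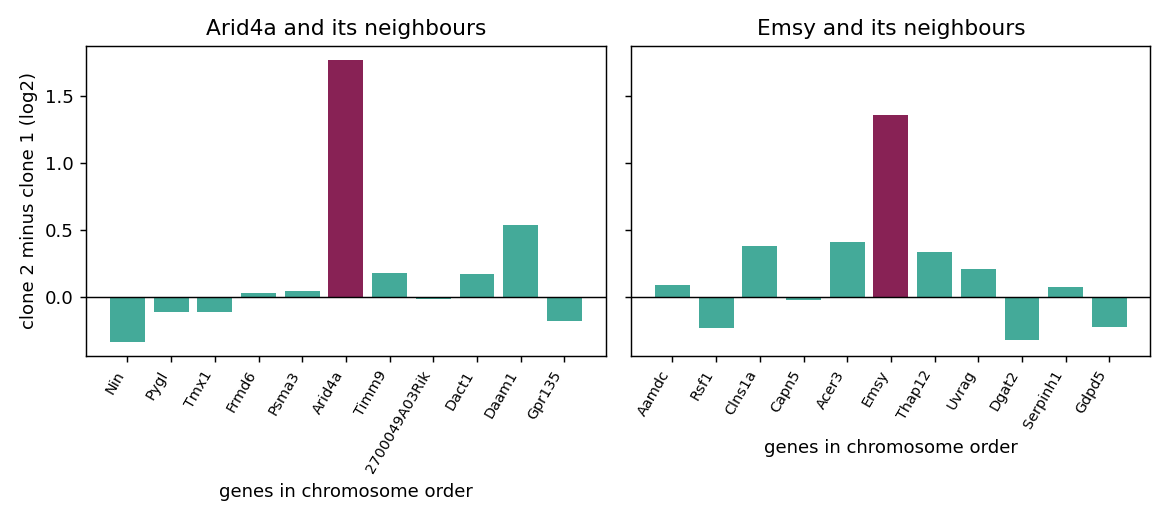
Difference between clones (clone 2 minus clone 1, log2; bars, 1 value per gene without error) of Arid4a (left) and Emsy (right) and of the 5 nearest genes above background on each side, in chromosome order and not to distance. The bars of Arid4a (1.77) and Emsy (1.36) stand over neighbours that lie between -0.33 and 0.54.

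Over 2 arrays the pattern of a gene is only its difference, and by this measure the 3 genes above background in both clones nearest to Arid4a were Otx2, a formative epiblast factor (7.27 and 8.71, a log2 difference of 1.44), Emsy (1.36) and the ubiquitin ligase Rnf216 (7.13 and 8.43, 1.30). The nearest to Emsy were Rnf216, Otx2 and the RNA-binding protein Rbm26 (8.47 and 9.62, 1.15). Arid4a and Emsy were picked for a large difference, so their nearness by this measure follows from that choice. Klf5 itself was 11.61 in clone 1 and 12.25 in clone 2 by its brightest probe set, a log2 difference of 0.64, and 6.97 and 7.26 by another above background, a difference of 0.29. The first is close to the difference of Arid4b, and both are smaller than those of Arid4a and Emsy by their brightest probe sets. In the brightest of 4 bands of signal, 1.28% of probe sets differed by no less than the first. In the dimmest band 41.2% differed by no less than the second. The remaining Klf5 probe set, 1430255_at, was below background in both clones (4.81 and 4.77).

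Upstream sequences are shown for Emsy and Arid4b, which were higher in clone 2, and for Sin3b, which was lower there by every probe set. They are the 250 bases before a RefSeq transcript start (GRCm38.p6), 5′ to 3′ on the gene's strand. Starts were used for 7 of the 10 genes, 9 in all, with 2 starts for Emsy that lie 8 bases apart. The RefSeq table used here gave none for Arid4a and Hdac1. Sap130 was left out by a filter on chromosome, so the match counts below do not cover it. Capitals mark matches on either strand to CCNCNCCC, a GC-rich pattern of the kind bound by Klf and Sp factors, or to TTTNNCGC. The latter is a loose pattern of the kind bound by E2F factors, with any base at N.
Emsy, chr7:98656578-98656827, minus strand: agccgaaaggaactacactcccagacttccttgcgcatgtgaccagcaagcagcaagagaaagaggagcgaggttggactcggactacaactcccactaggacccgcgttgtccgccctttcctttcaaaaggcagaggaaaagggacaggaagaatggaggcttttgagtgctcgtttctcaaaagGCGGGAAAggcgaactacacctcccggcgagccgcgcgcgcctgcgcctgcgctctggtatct
Arid4b, chr13:14063534-14063783, plus strand: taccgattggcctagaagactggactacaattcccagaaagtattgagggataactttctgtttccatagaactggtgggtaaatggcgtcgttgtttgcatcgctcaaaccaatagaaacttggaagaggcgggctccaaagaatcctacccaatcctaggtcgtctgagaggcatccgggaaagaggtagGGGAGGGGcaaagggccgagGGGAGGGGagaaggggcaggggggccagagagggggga
Sin3b, chr8:72723020-72723269, plus strand: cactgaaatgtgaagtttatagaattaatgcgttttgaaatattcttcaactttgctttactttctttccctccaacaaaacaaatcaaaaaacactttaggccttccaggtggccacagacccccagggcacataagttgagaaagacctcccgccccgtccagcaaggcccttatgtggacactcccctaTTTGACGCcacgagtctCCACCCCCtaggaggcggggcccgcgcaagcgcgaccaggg

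The capitals in Emsy are 1 E2F match, GCGGGAAA, 63 to 56 bases before the start, and no Klf match lies in this window. Arid4b has 2 Klf matches, GGGAGGGG at 58 to 51 and again at 38 to 31 bases before the start. Sin3b has the E2F match TTTGACGC at 58 to 51 and the Klf match CCACCCCC at 41 to 34, with no overlap between them. Over the 7 genes, 4 had a Klf match (Sap30, Sin3a, Sin3b and Arid4b) and 3 an E2F match (Emsy, Sap30 and Sin3b), and 0 had CACGTG, the E-box of Max dimers. Counted by window, 5 of 9 held a Klf match, 4 an E2F match and 0 an E-box. The windows of Emsy overlap and hold the same E2F match. Over the 32851 upstream windows of the same length in the table, 45.9% held a Klf match, 4.28% an E2F match and 6.02% an E-box. These are matches of letters in short windows, and no binding was measured.

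The labelled cell type was checked against its markers. All 12 ES cell markers were above background in both clones, beside 49.9% of all measured genes, with Pou5f1 at 12.26 and 12.43 and Sox2 at 12.39 and 12.55. Of 12 fibroblast markers, read because ES cells can be grown on feeder fibroblasts, 3 passed background in both clones, Thy1 (7.54 and 7.66), Pdgfrb (7.33 and 7.16) and Col5a1 (6.81 and 6.83), and Acta2 (5.99 and 6.35) passed in clone 2 alone. The other 8, among them the fibrillar collagens Col1a1 (4.68 and 4.09) and Col3a1 (4.31 and 3.61), were below background. Over all 12 fibroblast markers, those below background included, the summed linear signal was 737 in clone 1 and 727 in clone 2. Their part in the differences above was not tested. In bulk RNA a change in the share of cells that express a gene and a change in RNA per cell cannot be told apart.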

How the data were processed

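The deposited values are log2 signals, 1 for each probe set on each array. The authors made them with Transcriptome Analysis Console, as the submitters' processing notes say. How background was corrected and the arrays were summarised and normalized is not stated in the sources used here, nor is the log base, taken as 2 from the range of values, 2.21 to 14.38. The array medians were 5.27 and 5.18. The precision is limited by there being 2 arrays.

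Of 45037 probe sets, 34945 had 1 gene symbol, 932 several and 9160 none, and genes were named from the first kind. Entrez identifiers of 34741 matched the GRCm38.p6 gene table, which changed 0 symbols. A gene was represented by its brightest probe set. Because probe affinities differ, a higher signal of one probe set than of another is not read as higher abundance. Differences are clone 2 minus clone 1. With 1 array per clone no p-value was computed, and a fixed rule of size was used, a 2-fold difference whose higher clone passes background. Only its size part, without the background filter, was run on simulated data, with noise set from the differences between the clones. Such a run cannot show how the rule behaves within a clone.

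The members and lists were chosen with earlier results of these data known, and Mylpf was left out of the background genes for its high signal there. Named were the 10 members and Klf5, per list other than the marker lists the 3 genes with the largest differences and the one with the highest mean, 5 neighbours on each side and the 3 genes nearest in difference. Other genes were chosen after their values were seen: Cbx5 and Mxd1, and among the markers Pou5f1, Sox2, Thy1, Pdgfrb, Col5a1, Acta2, Col1a1 and Col3a1. Alternatives were 3 scalings, 3 background settings, 2 treatments of probe sets, Mylpf as a background gene and each clone alone. Analysis used Python 3.11.15, pandas 2.3.3, numpy 2.4.6 and statsmodels 0.14.6.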

Additional observations from a re-analysis of the deposited data

How the results depend on the processing

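All 10 genes were above background in clone 1 alone and in clone 2 alone; in both clones 8 were with background at the 99th percentile, which Arid4a and Emsy did not pass in clone 1, 9 with Mylpf among the background genes, which Arid4a did not pass in clone 1, and 7 with the mean over all probe sets of a gene. Arid4a and Emsy, picked for their difference, differed by 2-fold or more under the 3 scalings. Both percentiles, no filter, Mylpf and removal of x, s and a probe sets left their differences at 1.77 and 1.36. Under these settings the same probe sets were read, so the differences themselves could not change. With the mean over all probe sets 0 genes differed by 2-fold, since Arid4a (0.18) and Emsy (0.26) then include probe sets below background. With the mean over those above background, chosen after the data were seen, 1 did, Arid4a. The median difference of the 10 genes was 0.185 with arrays centred on their medians, 0.195 without x, s and a probe sets, and 0.17 (0.1725) with the mean over probe sets above background, where the medians of all genes were 0.18, 0.10 and 0.08. It stayed between 0.058 and 0.095 under the other alternatives run. The 2-fold count and the median need both arrays and have no value with 1 left out, and background in both clones has none without a filter. No paired analysis was possible because the arrays form 1 group.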
